A study of Mus musculus with 3 samples.

Results

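Transcripts of 31 genes of base and nucleotide excision repair were read on 3 arrays of mouse long-term haematopoietic stem cells given 0, 0.02 or 2.5 Gy of γ-radiation. The genes were taken from a fixed list of the enzymes and recognition factors of both pathways, 18 in base excision repair and 13 in nucleotide excision repair. All 31 were among the 23185 probe sets with 1 gene symbol, of 25206 in all. The cells had been sorted from bone marrow (Lin- ckit+ Sca+ Flk2- CD48- CD150+) and held overnight in StemSpan SFEM, a serum-free medium, before exposure outside the animal. RNA was taken 2 hours after exposure in all groups, the 0 Gy control included. No strain, genotype, animal age or number of animals pooled is given in the labels. Each dose has 1 array, so no difference has a replicate check, no test was possible and no p-value is given. Both dose comparisons share the unirradiated array.

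Base excision repair removes small lesions such as oxidised, deaminated or alkylated bases. A DNA glycosylase cuts out the damaged base, the endonuclease APE1 opens the strand at the abasic site, and a polymerase and a ligase fill and seal the gap. Nucleotide excision repair removes bulky, helix-distorting lesions by opening the helix with TFIIH and cutting the damaged strand on both sides. Ionizing radiation makes oxidised bases and single-strand breaks, the substrates of base excision repair, besides double-strand breaks.

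Of the 31 genes, 5 had a mean level at or above the median of all named genes and were at least 1.5-fold apart in some comparison, and their promoter windows are shown first. They are Apex1 and Rad23b, highest on the 2.5 Gy array, Gtf2h1 and Xpa, highest on the 0.02 Gy array, and Ercc4, highest on the 2.5 Gy array and lowest on the 0.02 Gy array. Each window runs from 250 bases before to 50 bases after the annotated start of the gene, 5′ to 3′, from RefSeq on GRCm38.p6. The build behind the array design is not given in the sources used here. Capitals mark matches, on either strand, to 7 motifs: Sp1 (GGGCGG), NF-Y (CCAAT), E-box (CACGTG), CRE (TGACGTCA), ETS (CCGGAAG), AP-1 (TGANTCA) and the p53 half-site. CCAAT on the other strand reads ATTGG, and GGGCGG reads CCGCCC. Of these, the NF-Y, Sp1 and E-box letters occur in the 5 windows, and the other 4 motifs do not.
Apex1 (chr14:50924699-50924998, plus strand): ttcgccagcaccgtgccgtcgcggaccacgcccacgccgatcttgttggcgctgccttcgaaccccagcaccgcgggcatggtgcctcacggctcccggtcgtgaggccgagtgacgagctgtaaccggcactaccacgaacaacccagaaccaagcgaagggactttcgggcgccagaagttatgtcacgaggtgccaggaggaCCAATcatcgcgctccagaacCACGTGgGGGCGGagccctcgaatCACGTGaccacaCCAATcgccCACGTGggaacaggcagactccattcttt
Rad23b (chr4:55349792-55350091, plus strand): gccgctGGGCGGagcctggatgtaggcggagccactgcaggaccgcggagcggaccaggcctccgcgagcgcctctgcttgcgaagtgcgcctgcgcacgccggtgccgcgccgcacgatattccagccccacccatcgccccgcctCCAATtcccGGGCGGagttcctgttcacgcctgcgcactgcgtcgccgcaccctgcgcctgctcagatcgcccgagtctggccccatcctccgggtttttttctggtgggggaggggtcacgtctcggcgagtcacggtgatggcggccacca
Gtf2h1 (chr7:46795844-46796143, plus strand): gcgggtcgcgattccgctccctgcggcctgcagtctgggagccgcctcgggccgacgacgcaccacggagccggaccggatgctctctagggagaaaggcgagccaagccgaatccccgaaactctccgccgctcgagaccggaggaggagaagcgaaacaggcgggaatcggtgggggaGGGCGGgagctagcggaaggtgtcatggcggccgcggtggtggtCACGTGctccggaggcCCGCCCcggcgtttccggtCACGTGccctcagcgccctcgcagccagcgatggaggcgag
Xpa (chr4:46196262-46196561, minus strand): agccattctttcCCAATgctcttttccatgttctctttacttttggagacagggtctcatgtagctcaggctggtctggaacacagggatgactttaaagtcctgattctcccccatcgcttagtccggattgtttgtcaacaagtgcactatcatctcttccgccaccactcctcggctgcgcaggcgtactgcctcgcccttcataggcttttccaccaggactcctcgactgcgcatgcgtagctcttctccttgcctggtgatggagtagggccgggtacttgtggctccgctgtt
Ercc4 (chr16:13109486-13109785, plus strand): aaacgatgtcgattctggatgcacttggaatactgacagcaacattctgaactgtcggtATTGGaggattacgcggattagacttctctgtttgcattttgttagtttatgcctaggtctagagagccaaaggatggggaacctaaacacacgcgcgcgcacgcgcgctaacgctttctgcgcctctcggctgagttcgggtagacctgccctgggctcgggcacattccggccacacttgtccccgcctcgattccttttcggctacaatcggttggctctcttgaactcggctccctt

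The Apex1 window holds 3 E-box, 2 NF-Y and 1 Sp1 match, and the Gtf2h1 window holds 2 E-box and 2 Sp1 matches. Rad23b has 2 Sp1 matches and 1 NF-Y match, and Ercc4 and Xpa have 1 NF-Y match each. Windows were given for 27 of the 31 genes, 32 windows in all. The E-box letters are in 31.2% of these windows and in 7.15% of the 32817 windows of all genes. Sp1 letters are in 65.6% against 35.6% and NF-Y letters in 50.0% against 37.4%. CRE letters are in 6.25% against 1.79%, ETS letters in 12.5% against 8.86% and the p53 half-site in 12.5% against 8.36%. The AP-1 letters are in 0 of the 32 windows, against 7.81% of all windows. The excision repair windows are also richer in G and C, with a median of 58.8% against 52.7%. These shares describe letters in short windows and say nothing of binding.

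The values are the authors' deposited log2 values, and a difference of 1 is 2-fold. Genes whose mean over the 3 arrays was at least 4.55, the median of all named genes, are called past the level minimum; 11593 genes were, and 26 of the 31 excision repair genes. The 5 below it are Tdg, Fen1, Ercc8, Mutyh and Neil1. How far a value lies above background is not known here.

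Genes induced by p53 were read as a check of the dose labels. Cdkn1a was 1.65 higher at 2.5 Gy than unirradiated, Ccng1 2.02 and Mdm2 1.27, and the same genes were at 0.46, 0.63 and −0.06 at 0.02 Gy. Array medians over all probe sets were 4.60, 4.54 and 4.55 (0, 0.02 and 2.5 Gy). Of 10 stem cell markers, 9 were measured and all 9 were past the minimum, with a mean log2 value of 5.94, 6.07 and 5.97; Kit and Slamf1, which encode ckit and CD150, were among them. Of the markers selected against, Cd48 was below the minimum and Flt3, which encodes Flk2, was past it. Of 10 myeloid markers, 9 were measured and 6 were past the minimum. These 6 were higher on both irradiated arrays, with median differences of 0.75 and 0.87. The other 3 were mostly lower, Ngp at −0.92 and −0.93, Ltf at −0.51 and −0.04 and Camp at 0.37 and −0.29, so the medians of all 9 were 0.42 and 0.12, and the summed linear value of the 9 was 328, 572 and 654. Of the T cell markers 0 of 5 measured were past the minimum, of the B cell markers 2 of 5, of the erythroid markers 3 of 5 and of the megakaryocyte markers 5 of 6. Their summed linear values were 79.9, 72.5 and 80.7 (T cell), 104, 99.2 and 104 (B cell), 132, 117 and 138 (erythroid) and 800, 910 and 969 (megakaryocyte). The largest part of the megakaryocyte sum is Pf4, at 9.05, 9.26 and 9.51. The 5 megakaryocyte markers past the minimum had medians of 0.07 and −0.17. Of these 5, 4 were above 0 at 0.02 Gy and 1 at 2.5 Gy (54.2% and 53.4% of all genes). The part of other cells in the differences below was not tested, and in such pooled RNA fewer cells of a type and less RNA per cell cannot be told apart.

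Excision repair genes differed between the arrays about as much as other genes did. The median spread over the 3 arrays was 0.39 for the 26 genes past the minimum and 0.37 for all genes. At 0.02 Gy, 0 of 26 were at least 2-fold higher or lower than unirradiated, where 2.47% of all genes past the minimum were. At 2.5 Gy the count was also 0 of 26, against 1.73% of all genes, and between the doses 0 of 26 against 2.5%. At those shares fewer than 1 of 26 genes would pass, so counts of 0 do not set these genes apart. At 1.5-fold, 1 of 26 was higher at 0.02 Gy (7.5% of all genes were), 2 of 26 were higher at 2.5 Gy (6.07%), and on the deposited values 0 were lower at either dose (4.72% and 3.44% of all genes). The 2.5 Gy counts moved with the scaling, to 2 higher and 2 lower after quantile normalization, 1 and 1 after loess and 4 and 0 after median centring. The counts of all 11593 genes also moved. They were 586 higher and 482 lower after quantile normalization, 570 and 447 after loess and 886 and 323 after median centring. Between the doses 1 of the 26 was higher at 2.5 Gy and 1 lower (5.74% and 5.67% of all genes).

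The median of the 26 genes was 0.13 at 0.02 Gy and 0.06 at 2.5 Gy above the unirradiated array, beside 0.04 and 0.02 for all genes. With the minimum at the 75th percentile, the 16 genes left had medians of 0.13 and 0.06 beside 0.11 and 0.08 for all genes, so the gap narrowed at 0.02 Gy and turned at 2.5 Gy. At 0.02 Gy 18 of 26 were above 0 (54.2% of all genes were), and at 2.5 Gy 17 of 26 were (53.4%). Between the doses the median was −0.02 and 12 of 26 were above 0 (49.4%). Over all 31 genes the medians were 0.11, 0.04 and −0.01. The single lowest value of a gene lay on the unirradiated array for 13 of 26 genes, against 37.4% of all genes. The highest lay there for 4 of 26, against 29.6%.

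**Figure D1:**
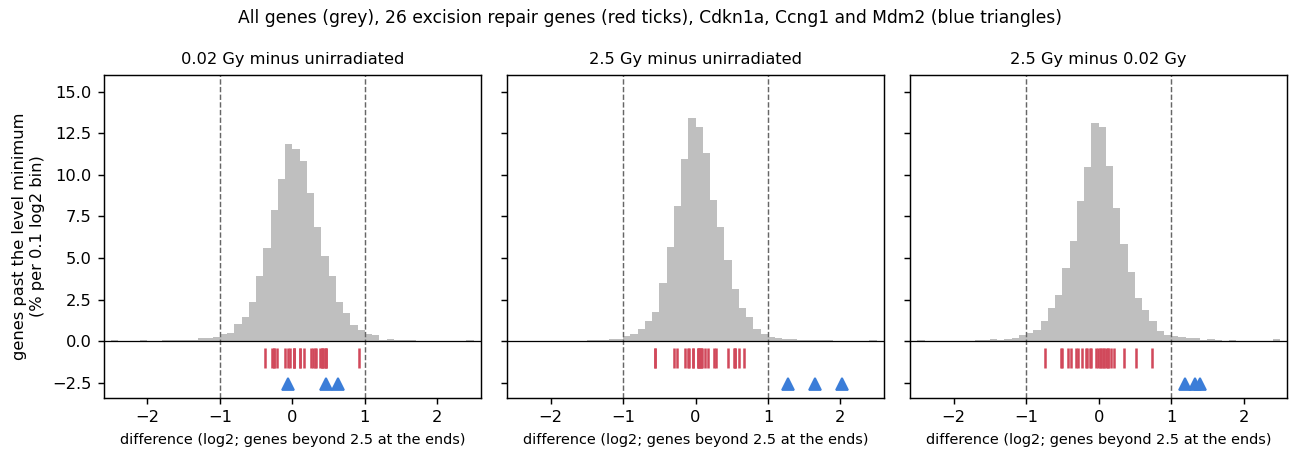
Share of all 11593 genes past the level minimum (grey bars, percent per bin) by log2 difference in the 3 comparisons, with the 26 excision repair genes as red ticks and 3 p53 targets as blue triangles. Every tick lies inside the dashed 2-fold lines, while the p53 targets lie at 1.27 to 2.02 in the middle panel.

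The DNA glycosylases, which recognise and cut out single damaged bases, showed no common order of the arrays, and 3 enzymes of oxidised bases were nearly level. Ogg1, the glycosylase of 8-oxoguanine, was at 5.86, 5.82 and 5.90 (log2 at 0, 0.02 and 2.5 Gy), a spread of 0.08. Nthl1, which removes oxidised pyrimidines, was at 5.51, 5.53 and 5.59, also a spread of 0.08. Neil3, an oxidised-base glycosylase seen mainly in proliferating cells, was at 5.44, 5.59 and 5.47. No array stood out for these 3 genes.

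The other NEIL enzymes were highest on the unirradiated array. Neil2 was at 5.64, 5.26 and 5.08, which is 1.30-fold lower at 0.02 Gy and 1.48-fold lower at 2.5 Gy. At 2.5 Gy this difference of −0.56 was below those of all but 3.82% of genes. Neil1 was at 4.81, 4.18 and 4.21, with differences of −0.63 and −0.60, but its mean was below the level minimum. Smug1, a uracil glycosylase outside the 31, was likewise highest without radiation, at 5.53, 4.63 and 4.80.

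Mbd4, which removes thymine or uracil paired with guanine at methylated CpG sites, was highest at 0.02 Gy, at 5.24, 5.70 and 5.20. The 0.02 Gy array was 1.38-fold above the unirradiated one, and the other two were within 0.03 of each other. Ung, the main uracil glycosylase, was lowest at 2.5 Gy, at 4.66, 4.69 and 4.41, the last value being below the level minimum. Tdg, which acts on the same mismatches as Mbd4, gave the widest spread of the 31 genes, at 2.27, 3.55 and 1.81. All 3 values lie far below the level minimum of 4.55, and how far they lie above background is not known. Mutyh, which removes adenine paired with 8-oxoguanine, was below the minimum at 4.41, 4.09 and 4.26. The median of the 6 glycosylase genes past the minimum was 0.02 at 0.02 Gy and 0.00 at 2.5 Gy; the latter became −0.03 after quantile normalization or loess.

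**Figure D2:**
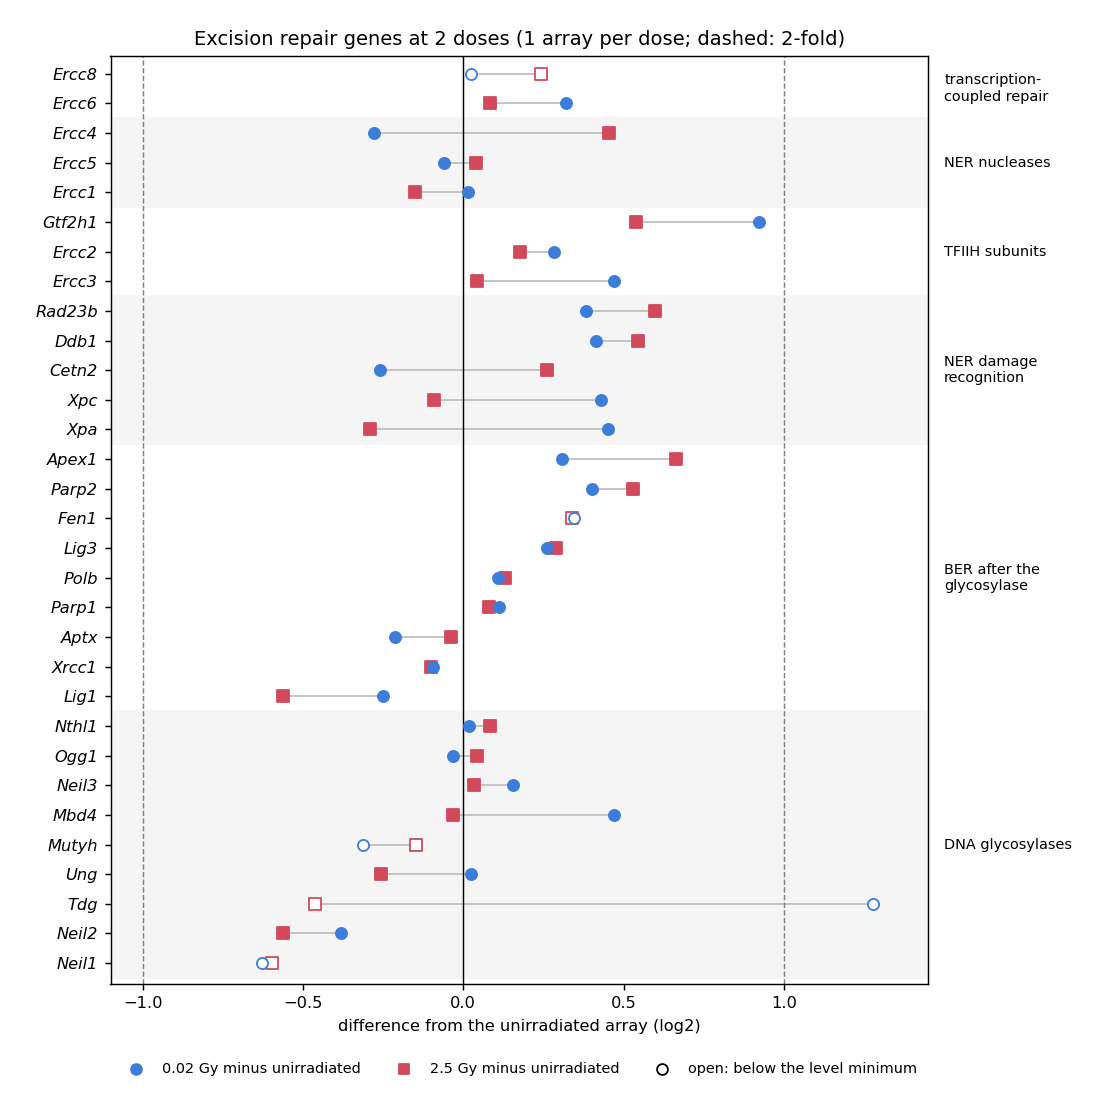
Log2 difference from the unirradiated array for each of the 31 genes by role, at 0.02 Gy (blue circles) and 2.5 Gy (red squares), with open symbols for the 5 genes below the level minimum and dashed lines at 2-fold. Gtf2h1 at 0.02 Gy (0.92) is the filled symbol farthest from 0, and only the open Tdg symbol passes 2-fold.

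After the glycosylase, APE1 opens the strand, and its gene had the highest 2.5 Gy difference of the 26 on the deposited values. Apex1 was at 5.45, 5.76 and 6.12, lowest unirradiated and highest at 2.5 Gy. The 2.5 Gy array was 0.66 or 1.58-fold above the unirradiated array, more than 95.6% of all genes. At 0.02 Gy the difference was 0.31, and between the doses 0.36.

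Of the break sensors, Parp2 had the same order and Parp1 varied little. Parp2, a poly(ADP-ribose) polymerase activated by strand breaks, was at 4.87, 5.28 and 5.40, which is 1.32-fold and 1.44-fold above unirradiated. Parp1, the more active enzyme of the same kind, was at 5.57, 5.69 and 5.65, a spread of 0.11. Xrcc1, the scaffold that these enzymes draw to the break, was at 5.96, 5.86 and 5.86. Of its partners, Lig3, the ligase bound to it, was at 5.59, 5.85 and 5.88, and Polb, the gap-filling polymerase, at 5.27, 5.38 and 5.41. Both were slightly higher on both irradiated arrays, by 0.11 to 0.29. Aptx, which removes stalled AMP from break ends, was at 5.02, 4.81 and 4.98.

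The ligases went opposite ways. Lig1, which seals Okazaki fragments and long repair patches, was at 6.25, 6.00 and 5.69, highest unirradiated and lowest at 2.5 Gy. The 2.5 Gy array was 1.48-fold lower than the unirradiated one, and 3.8% of all genes had a lower difference. After quantile normalization its difference was −0.66 and that of Apex1 0.63, and after loess they were −0.63 and 0.61. Fen1, the flap endonuclease that works with Lig1, was below the level minimum on every array at 2.51, 2.86 and 2.85. The median of the 8 genes of these later steps that were past the minimum was 0.11 at both doses, with 5 of 8 above 0.

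Lig1 and Fen1 also serve DNA replication, so a list of S phase genes was read on the same arrays. Of 19 measured genes 14 were past the minimum, with a median of 0.10 at 0.02 Gy and 0.03 at 2.5 Gy. None of the 14 was at least 1.5-fold lower at 0.02 or 2.5 Gy, where 4.72% and 3.44% of all genes were. At those shares a count of 0 of 14 does not set the list apart. At 2.5 Gy 1 was higher, Cdt1 at 0.61 (6.07% of all genes were). Among the S phase genes below the minimum, Gins2 was at −0.62 at 0.02 Gy. The part of the cell cycle in the Lig1 difference was not tested.

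**Figure D3:**
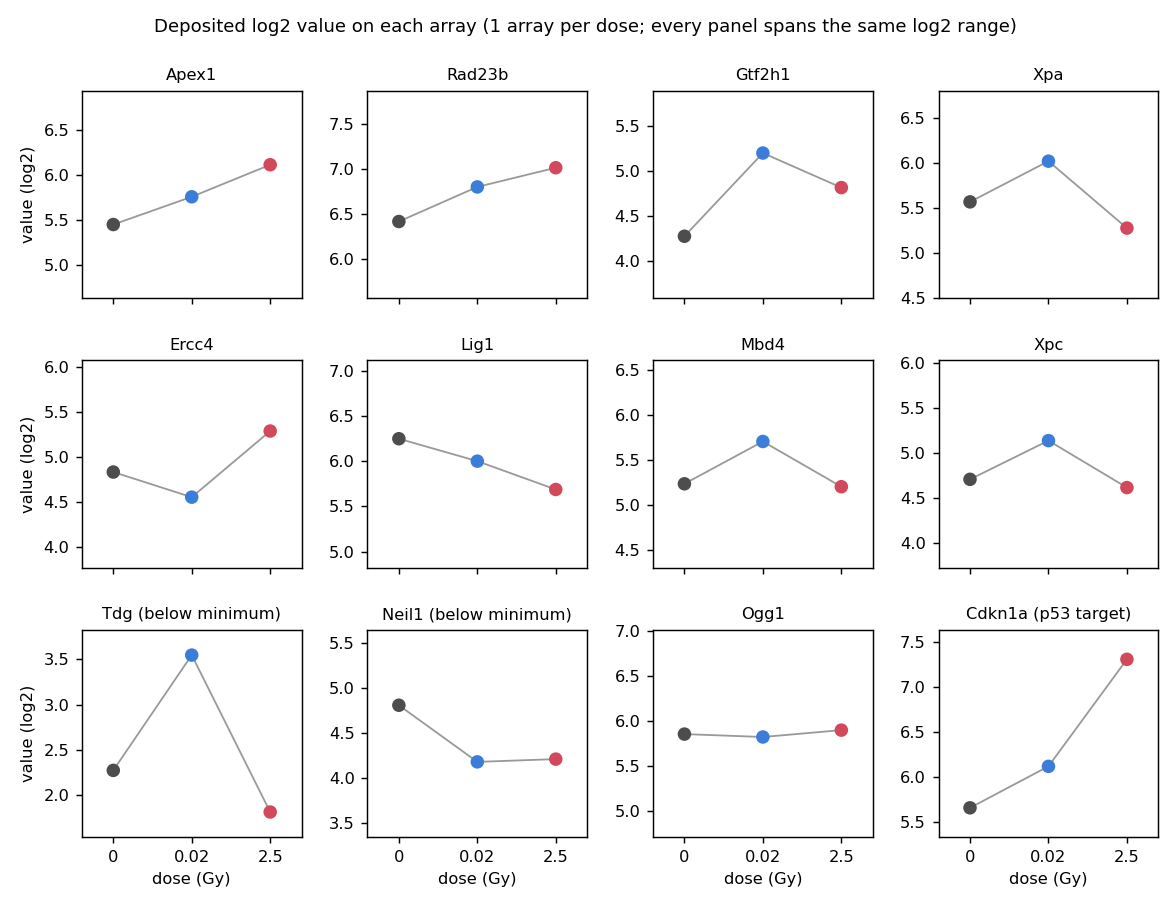
Deposited log2 value at 0, 0.02 and 2.5 Gy for 11 excision repair genes and for the p53 target Cdkn1a, 1 point per array, every panel spanning the same log2 range. Apex1 and Rad23b are highest at 2.5 Gy, Gtf2h1, Xpa, Mbd4 and Xpc at 0.02 Gy, and Ogg1 is level, while Cdkn1a spans 1.65.

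In nucleotide excision repair the recognition genes divided between the doses. Rad23b, the partner that stabilises XPC, was at 6.41, 6.80 and 7.01, lowest unirradiated and highest at 2.5 Gy. Its 2.5 Gy difference of 0.60 or 1.51-fold became 0.47 after quantile normalization and after loess. Ddb1, the adaptor of the ubiquitin ligase that finds ultraviolet lesions in chromatin, had the same order at 6.61, 7.02 and 7.16, or 1.33-fold and 1.46-fold above unirradiated. Both are well-expressed genes, and for the 2898 genes of highest level the median was itself 0.17 (0.02 Gy) and 0.13 (2.5 Gy) above the unirradiated array.

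Xpc and Xpa were instead highest at 0.02 Gy. Xpc, which binds the distorted helix first, was at 4.71, 5.14 and 4.62. Its 0.02 Gy value was 1.35-fold above unirradiated and 1.43-fold above the 2.5 Gy array, while the unirradiated and 2.5 Gy arrays differed by 0.09. Xpa, which verifies the lesion and places the nucleases, was at 5.57, 6.02 and 5.28. The 2.5 Gy array was 0.74 or 1.67-fold below the 0.02 Gy array, and 2.76% of all genes had a lower difference. Cetn2, the centrin bound to XPC, ran the other way at 5.79, 5.52 and 6.04, so that the members of the XPC complex (Xpc, Rad23b and Cetn2) had no common order. The median of the 5 recognition genes was 0.41 at 0.02 Gy (0.22 after quantile normalization or loess) and 0.26 at 2.5 Gy.

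The 3 genes of TFIIH, the helicase complex that opens the helix and also starts transcription, were all highest at 0.02 Gy. Gtf2h1, which encodes the p62 subunit, was at 4.28, 5.20 and 4.82. The 0.02 Gy difference of 0.92 or 1.90-fold was above those of 98.2% of all genes, and the 2.5 Gy difference was 0.54. Its unirradiated value lay below the level minimum. Ercc3, the XPB translocase, was at 5.64, 6.11 and 5.68, so that only the 0.02 Gy array stood above the others. Ercc2, the XPD helicase, was at 5.39, 5.68 and 5.57. Other TFIIH genes, read after these values were seen, did not share this order: Gtf2h3 was at 4.75, 4.69 and 4.95, Gtf2h4 at 5.56, 5.28 and 5.40 and Gtf2h5 at 7.61, 7.38 and 7.70. Those of its kinase module were highest at 0.02 Gy for Cdk7 (4.57, 4.91 and 4.79) and Mnat1 (6.70, 7.11 and 6.96) but not for Ccnh (6.44, 6.19 and 6.16).

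The nucleases that cut on both sides of the lesion differed from each other. Ercc4, the XPF nuclease, was at 4.83, 4.55 and 5.29, lowest at 0.02 Gy and highest at 2.5 Gy. Its 0.02 Gy value lay just below the level minimum. The doses differed by 0.73 or 1.66-fold, more than 96.9% of all genes. Ercc1, its obligate partner, was at 5.62, 5.63 and 5.46, a spread of 0.17 with its lowest value at 2.5 Gy. Ercc5, the XPG nuclease of the other side, was level at 5.70, 5.64 and 5.74. In transcription-coupled repair, which starts at stalled RNA polymerase, Ercc6 (CSB) was at 5.04, 5.36 and 5.13. Ercc8 (CSA) was below the minimum at 4.01, 4.04 and 4.26.

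Set side by side, the 12 nucleotide excision repair genes past the minimum had a median of 0.35 at 0.02 Gy and 0.13 at 2.5 Gy. At each dose 9 of 12 were above 0, where 54.2% and 53.4% of all genes were. The 14 base excision repair genes had medians of 0.07 and 0.04, with 9 and 8 above 0. After quantile normalization the nucleotide excision repair medians were 0.24 and 0.12, and the base excision repair medians were 0.07 and −0.00, the last having turned sign. The counts above 0 became 8 and 7 of 12 for nucleotide and 8 and 7 of 14 for base excision repair. Of all genes 49.6% and 48.4% were then above 0. The median spread over the 3 arrays was 0.52 for nucleotide excision repair, 0.25 for base excision repair and 0.37 for all genes. With 1 array per dose the difference between the pathways could not be tested.

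Other genes listed under the same pathways were read beside the 31. Of 14 further nucleotide excision repair genes past the minimum, 10 were above 0 at 0.02 Gy and 12 at 2.5 Gy (54.2% and 53.4% of all genes). Their medians were 0.37 and 0.21, and became 0.27 and 0.23 after quantile normalization or loess. Some, among them Rbx1, Cul3, Mnat1, Cops5 and Gtf2h5, are well expressed, like Rad23b and Ddb1. The 2898 genes of highest level had medians of 0.17 and 0.13. After quantile normalization 9 and 10 of 14 were above 0. None was 2-fold apart. At 1.5-fold 1 of 14 was higher at 0.02 Gy (7.5% of all genes), Cul4b, a cullin of the DDB1 ligase, at 4.31, 4.95 and 4.49. Only its 0.02 Gy value lay above the level minimum. Ddb2, the lesion-binding partner of DDB1 and a p53 target in human cells, was at 5.72, 6.17 and 5.93, highest at 0.02 Gy. Of 8 further genes listed under base excision repair, 1 was above 0 at 0.02 Gy and 2 at 2.5 Gy (54.2% and 53.4% of all genes). The 0.02 Gy count became 4 after loess or median centring, where 49.7% and 62.4% of all genes were above 0. The medians of the 8 were −0.08 and −0.13. The first became −0.03 after quantile normalization or loess and −0.01 after median centring. Smug1 was the 1 past 1.5-fold, at −0.90 and −0.73 (4.72% and 3.44% of all genes were at least 1.5-fold lower). The 8 include Aplf, Tdp2 and Atp23 (listed as Xrcc6bp1), which are not core base excision repair genes.

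The 17 genes of shared gap filling past the minimum had medians of 0.20 and 0.05, of which the 0.02 Gy median became 0.13 after quantile normalization or loess. At 1.5-fold 3 of 17 were higher at 0.02 Gy and 2 at 2.5 Gy (7.5% and 6.07% of all genes), and 0 were lower at either dose. Pole4, a small subunit of polymerase epsilon, was at 4.51 (below the level minimum), 5.50 and 5.10, and Rfc4, a clamp loader subunit, at 4.94, 5.90 and 5.05. Rpa3, a subunit of the single-strand binding protein RPA, was at 5.38, 6.05 and 5.41. Pcna, the sliding clamp, was at 8.19, 8.76 and 8.11. In Rfc4, Rpa3 and Pcna the 0.02 Gy array stood 0.57 to 0.95 above the unirradiated array. The unirradiated and 2.5 Gy arrays differed by 0.03 to 0.10 in these genes. Of the other subunits of these complexes, Rfc1 and Rfc2 were also highest at 0.02 Gy. Rfc3 and Rpa2 were lowest there, and Rfc5 and Rpa1 were level. Pold3, a subunit of polymerase delta, was highest at 2.5 Gy, at 5.92, 6.43 and 6.59. The 7 mismatch repair and direct reversal genes past the minimum had medians of 0.08 and −0.08, none past 1.5-fold; the first became −0.01 after quantile normalization.

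**Figure D4:**
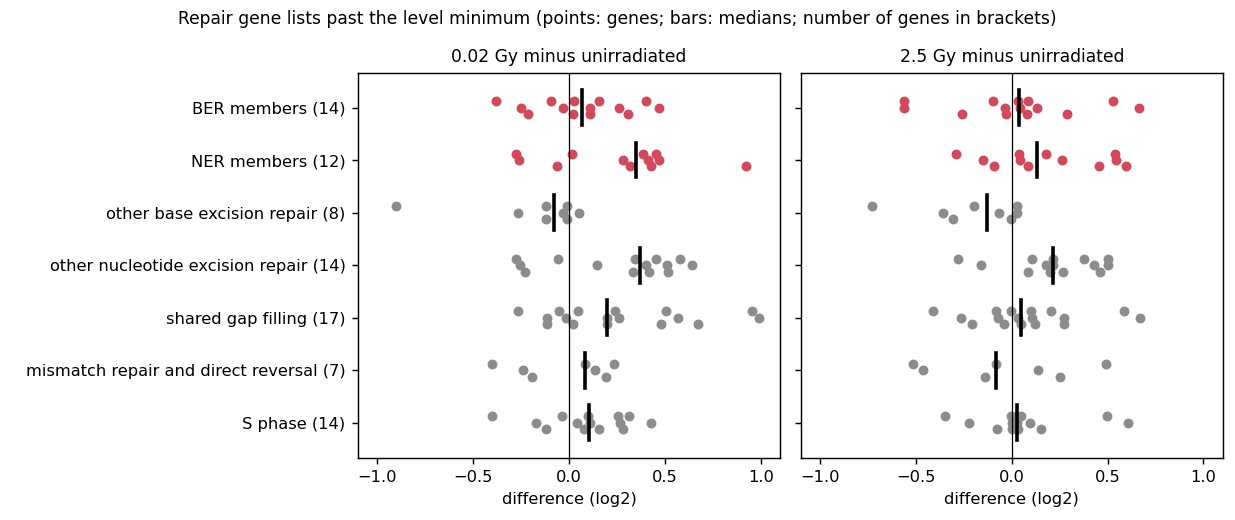
Log2 difference from the unirradiated array at 0.02 Gy (left) and 2.5 Gy (right) for each gene past the level minimum in 7 lists, excision repair genes in red and others in grey, with the list medians as black bars. At 0.02 Gy the nucleotide excision repair medians lie at 0.35 and 0.37. Those of the base excision repair lists lie at 0.07 and −0.08, the further list being broader than that pathway. After quantile normalization the nucleotide excision repair medians are 0.24 and 0.27 and the base excision repair medians 0.07 and −0.03.

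Some excision repair genes start close to a gene on the other strand. In the RefSeq windows 10 of the 27 genes have a start within 1000 bases of a start pointing the other way. Among those past the minimum 7 of 22 do, against 17.2% of all such genes. In 6 pairs both genes were past the minimum: Apex1 with Osgep, Cetn2 with Nsdhl, Gtf2h1 with Hps5, Lig1 with Zswim9, Lig3 with Gm11423 and Nthl1 with Tsc2. The signs matched in 6 of 6 pairs at 0.02 Gy, 4 of 6 at 2.5 Gy and 3 of 6 between the doses. Over all 392 such pairs in the table the signs matched in 51.5%, 53.1% and 46.4%. With the 4 pairs below the minimum included, they matched in 8, 5 and 6 of 10.

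Osgep, a tRNA modification gene that starts 56 bases from Apex1, was at 5.40, 5.54 and 6.00. Its 2.5 Gy difference of 0.60 lay beside 0.66 for Apex1, so both genes were highest at 2.5 Gy. Hps5, which starts 213 bases from Gtf2h1, was at 5.09, 5.34 and 5.03, a difference of 0.25 at 0.02 Gy beside 0.92 for Gtf2h1. Zswim9 was at 4.79, 4.65 and 4.75 and did not share the 2.5 Gy difference of Lig1, with −0.05 beside −0.56.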

How the data were processed

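Target was biotinylated cDNA from total RNA (an Affymetrix whole-transcript assay), per the labels' protocols. The authors deposited 1 log2 value per probe set and array; the scale was read from the values. The submitters' processing notes name Partek with no role, and the sources used here do not give the background correction, normalization or summarisation. Probe sets were named from the platform annotation, with symbols updated through RefSeq. Those with no symbol, several symbols or a symbol shared with another probe set, 2021 in all, were left out. Differences were taken on the deposited values with pandas 2.3.3, and counted at 2-fold. The level minimum uses the mean of the 3 arrays. Counting was tested on simulated data. With 1 array per dose no test was run, and the number of arrays limits precision. Some genes of the lists are not analysed here. Members with a 1.5-fold difference, or among the 4 largest in a comparison, were given in full. Genes and lists were chosen with earlier results of these data known. Alternatives were other level minimums, fold sizes of 1.5 and 3, means, quantile normalization, median centring and loess (statsmodels 0.14.6, span 0.3).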

Additional observations from a re-analysis of the deposited data

Results flagged for a closer look

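In 3 genes the doses lay on opposite sides of the unirradiated array and at least 1.5-fold apart. With 1 array per dose and a shared unirradiated array, none of these differences was tested. Xpa was 0.45 above it at 0.02 Gy and at −0.29 at 2.5 Gy, with −0.74 between the doses. Ercc4 was at −0.28 and 0.46 (0.73 between the doses), with its 0.02 Gy value just below the level minimum. Tdg was at 1.28 and −0.46 (−1.74 between the doses), all of it below the level minimum.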

How the results depend on the processing

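No paired analysis was possible because there is a single array at each dose, with no replicate numbers to share. Without the level minimum 1 of the 31 genes, Tdg, passed 2-fold at 0.02 Gy and 1 between the doses (2.29% and 2.22% of all genes). At 1.5-fold the counts of 26 were 1 (0.02 Gy), 2 (2.5 Gy) and 2 (between the doses), by construction of the smaller size. Every other setting for the 2-fold count gave 0. The median between the doses turned from −0.018 to 0.011 with a minimum at the 75th percentile (16 genes), both close to 0. At that minimum all genes had medians of 0.11 and 0.08 at 0.02 and 2.5 Gy, against 0.13 and 0.06 for the members. The other 20 of 21 median values kept their sign and moved by less than 0.1. At 0.02 Gy they ran from 0.11 to 0.20 and at 2.5 Gy from 0.03 to 0.11. The upper ends came from median centring, where all genes had medians of 0.11 and 0.07. Single-gene differences of at least 1.5-fold on the deposited values were each rescaled in 3 ways, giving 27 values. Of these 8 fell under 1.5-fold. They were Neil1 at both doses under all 3 scalings and Rad23b at 2.5 Gy under quantile normalization (0.47) and loess (0.47). Differences that passed 1.5-fold only after rescaling are not among the 27. Examples at 2.5 Gy are Lig1 (−0.66) and Neil2 (−0.59) after quantile normalization and Ddb1 (0.59) after median centring. Which low values lay above background could not be judged from the deposited values.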
